A study of Rattus norvegicus with 63 samples.

Results

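Livers of 3 male Wistar Hanover rats dosed with dimethylnitrosamine (DMN) were compared with livers of the 3 corn oil rats that the labels set against them as control group 3. The members were taken by sample title and control group alone, so these 6 arrays are 6 of the 63 in the series. DMN was given at 4 mg/kg/day by gastric gavage for 7 days, and the controls received the corn oil vehicle by the same route for 7 days. The rats were 8 to 10 weeks old at assignment, and the labels name no altered allele. Per the methods, the 3 animals of a treatment group were picked because histopathology showed some change in their livers, and each array is another animal. Values are listed in the order of the labels' numbers, DMN animals 1, 2 and 3 and control animals 4, 5 and 6. Each array measured whole liver RNA as log2 levels of 15866 probe sets. In such bulk tissue, fewer cells of a type and less RNA per cell cannot be told apart.

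DMN is a small N-nitrosamine that turns harmful only when the liver oxidises it, mainly through Cyp2e1 in the hepatocytes around the central veins. The product methylates DNA, and cells answer with repair, with p53-driven arrest of the cell cycle or with death. Injured liver also draws in monocytes and lymphocytes, and interferon gamma is known to raise the machinery that cuts proteins into peptides and shows them on major histocompatibility molecules.

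In the DMN livers 300 genes rose and 89 fell of 10411 tested, which was 2.88% and 0.855% of the genes (limma, adjusted p under 0.05). Most changes were small, with a median log2 difference of 0.47 among the genes that rose and of -0.45 among those that fell. In 295 of the former and 88 of the latter the groups did not overlap. Over all genes tested, 13.4% had every DMN animal above every control and 9.05% had every DMN animal below. Leaving out 1 animal moved the number of called probe sets from 513 to between 273 (without control 5) and 780 (without control 4). A change beyond 2.5-fold, the criterion of the study, was reached by 38 probe sets upward and 12 downward. A second corn oil set, number 4 in the labels, holds 3 rats dosed with the same vehicle for 14 days. With it as control, 32 of the 97 called genes that the naming rule picked did not pass, and the values of those described are given beside them. The controls were the less uniform group, with correlations across probe sets of 0.9909 to 0.9948 between animals against 0.9948 to 0.9956 between DMN animals. Of 13 hepatocyte markers 1 passed, Apoa1 at 0.40 log2, which was lost without control 5, control 6, DMN animal 1 or DMN animal 2 and against corn oil set 4 (0.26, adjusted p = 0.194). Alb (albumin) stood at 14.98, 14.96 and 14.97 in DMN animals and at 15.005, 15.08 and 15.01 in controls.

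**Figure D1:**
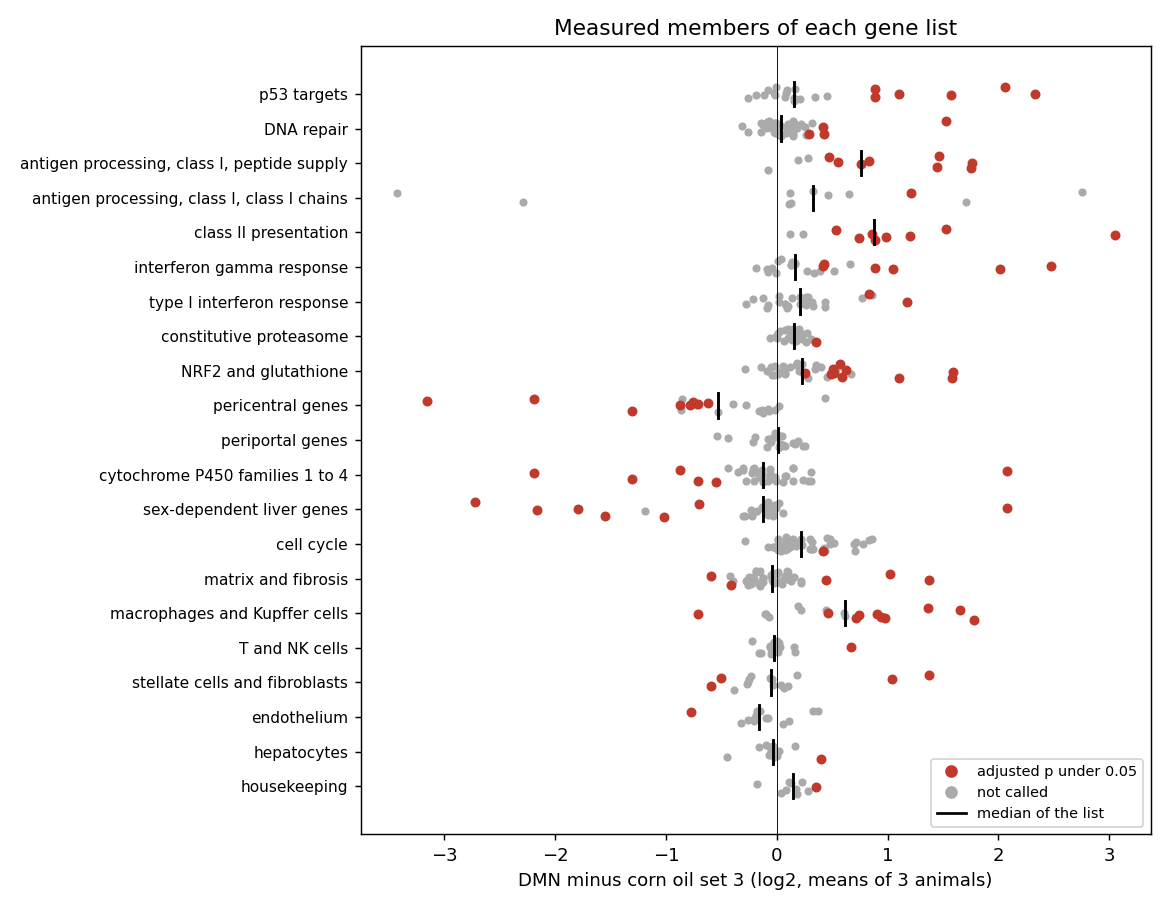
Difference between DMN and corn oil livers (x axis, log2, means of 3 animals each) for the measured members of each gene list or part of a list (y axis). Red points passed an adjusted p under 0.05, grey points did not, and black bars are medians. The peptide supply and class II members lie to the right with medians of 0.76 and 0.87, the pericentral members to the left with a median of -0.53, and the periportal members around 0.01.

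The p53 targets that responded against these controls were few and moved far. Of 23 measured members 6 rose and 0 fell, and the list median was 0.16 beside 0.00 over all genes. Cdkn1a encodes p21, the cyclin-dependent kinase inhibitor through which p53 stops the cell cycle. Its level was 11.52, 11.59 and 10.55 in the DMN animals and 8.48, 8.84 and 9.34 in the controls. The difference was 2.33 ± 0.26 log2 (SE, n = 3 per group), or 5.04-fold, with an adjusted p of 1.37e-08. Ccng1, the gene of cyclin G1, stood at 10.21, 10.09 and 10.09 against 8.18, 7.98 and 8.05, a difference of 2.06 ± 0.15 log2 (adjusted p = 2.61e-14). The groups did not overlap for either gene, and for Ccng1 the spread within each group was a small part of the gap. Mdm2, the ubiquitin ligase that holds p53 in check, was 9.07, 8.58 and 8.69 in DMN livers and 7.31, 7.23 and 7.09 in controls (1.57 ± 0.17 log2, adjusted p = 4.74e-09). Ephx1 (microsomal epoxide hydrolase), Phlda3 (a brake on Akt signalling) and Gdf15 (a secreted stress factor) completed the 6 and were 1.10, 0.89 and 0.88 log2 higher. The other 17 members did not pass. Among these, Perp and Ei24, both linked to p53-driven cell death, gave 0.45 and 0.35 log2 (adjusted p = 0.0605 and 0.061), although a further probe set of Perp passed at 0.59. Pcna, Sesn1, Gadd45a and the death receptor gene Fas gave 0.09, -0.12, 0.21 and 0.08 log2. Against corn oil set 4, 9 members rose in place of 6. There Perp, Ei24 and Zmat3 passed at 0.62, 0.34 and 0.33 log2 (adjusted p = 0.00304, 0.0435 and 0.0238), and Pcna gave 0.49 (adjusted p = 0.0503).

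The 250 bases before the gene start are printed for Cdkn1a and Ccng1 because these had the largest differences of the list (RefSeq promoters, build GRCr8). The stretches are chr20:7150682-7150931 (plus strand) for Cdkn1a and chr10:25684877-25685126 (minus strand) for Ccng1. The capitals mark a single p53 half-site, a 10-letter pattern searched on both strands. This pattern is RRRC, WW and GYYY in a row, where R is A or G, W is A or T and Y is C or T. It was present in 6.64% of the 33469 promoters of the table, in 4 of the 7 measured members of the cell cycle arrest group, in 1 of 3 promoters of the p53 regulation group, in 1 of 7 of the apoptosis group and in 0 of 4 of the repair and metabolism group. Among the 6 genes that rose, Cdkn1a and Ccng1 held it and Mdm2, Phlda3, Gdf15 and Ephx1 did not. A match describes the letters and is not a shown binding site.
Cdkn1a: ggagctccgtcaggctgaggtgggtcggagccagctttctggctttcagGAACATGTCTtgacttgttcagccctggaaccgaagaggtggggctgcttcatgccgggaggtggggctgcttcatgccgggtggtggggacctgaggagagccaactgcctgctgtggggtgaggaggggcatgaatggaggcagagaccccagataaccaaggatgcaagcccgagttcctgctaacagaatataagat
Ccng1: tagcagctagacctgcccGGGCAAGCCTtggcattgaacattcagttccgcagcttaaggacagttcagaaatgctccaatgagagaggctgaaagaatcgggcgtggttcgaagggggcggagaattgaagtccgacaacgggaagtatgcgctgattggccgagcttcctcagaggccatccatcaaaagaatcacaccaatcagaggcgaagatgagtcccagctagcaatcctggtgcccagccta

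Of 43 measured DNA repair genes 4 rose and 0 fell. The largest difference belonged to Mgmt, whose protein takes the methyl group off O6-methylguanine, the mutagenic lesion that methylating agents leave. Mgmt was 10.22, 9.76 and 9.75 in DMN animals and 8.32, 8.39 and 8.43 in controls, 1.53 ± 0.30 log2 or 2.89-fold higher (adjusted p = 0.000839). No control came near the DMN animals for this gene. Rpa1, which coats single-stranded DNA, and Xrcc1, the scaffold of base excision repair, rose by 0.43 and 0.41 log2. Polb, the polymerase of that pathway, passed at 0.29 (adjusted p = 0.0463), but its other probe set gave -0.30. Against corn oil set 4, Xrcc1 gave 0.27 and Polb 0.12 (adjusted p = 0.104 and 0.464). Of the 14 double-strand break genes measured 0 passed by limma, and 2 had an unadjusted p under 0.05. Without control 5, control 6 or DMN animal 1, 2 repair genes passed in place of 4.

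The interferon gamma response showed the same form, a few large changes and many values near the controls. Of 23 measured members 6 rose and 0 fell, with a median of 0.16. Gbp2 is a guanylate-binding protein that attacks membranes around intracellular microbes. Its level was 7.92, 8.23 and 8.84 in DMN animals and 6.01, 5.86 and 5.70 in controls, which is 2.47 ± 0.17 log2 or 5.55-fold (adjusted p = 3.21e-15), the lowest adjusted p among the genes named for this comparison. Among the other 60 arrays no value exceeded 6.98. Cxcl9, a chemokine that draws T cells through CXCR3, was 9.45, 10.35 and 10.33 against 8.32, 7.72 and 8.03 (2.02 ± 0.25 log2, adjusted p = 1.56e-07). Its relative Cxcl10 was 6.84, 7.46 and 7.24 against 6.27, 6.13 and 6.47 (0.89 log2, adjusted p = 0.0008). The transcription factor Irf1 was 9.95, 9.89 and 10.20 against 9.09, 8.78 and 9.03, 1.05 ± 0.18 log2 higher (adjusted p = 0.000133). None of these 4 genes had overlapping groups. Ccl2, a monocyte attractant, and Cxcl16 rose by 0.42 and 0.42 log2, but against corn oil set 4 Cxcl16 gave 0.07 (adjusted p = 0.782). Among the members that did not pass, Ifng itself was 5.13, 5.31 and 5.03 in DMN animals and 5.21, 5.27 and 5.26 in controls. These levels are low beside array medians of 7.42 to 7.51, and a probe set this dim may not show a change. Ccl5, Nos2 and Ifngr1 gave -0.04, 0.04 and 0.12 log2.

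The type I interferon list gave few calls. Of 27 measured members 2 rose, Lgals3bp by 1.17 and Ifi27l2b by 0.84 log2, 0 fell, and the median was 0.21. The groups of Ifi27l2b overlapped, at 12.41, 12.25 and 12.73 against 12.30, 10.75 and 11.83. Without control 5, DMN animal 1 or DMN animal 3, 1 member passed, and against corn oil set 4 Lgals3bp gave 0.68 and Ifi27l2b 0.30 (adjusted p = 0.0582 and 0.492). Many uncalled members were still slightly higher: 22 of the 27 lay above 0, and 10 had every DMN animal above every control. Over all genes 13.4% did. At an unadjusted p under 0.05 (limma), 11 of the 27 were higher and 0 lower. Among all 10411 genes 1105 were higher and 662 lower at that level. The antiviral genes Mx1, Ifit1, Oas1a and Rsad2 gave 0.02, -0.09, 0.08 and -0.28 log2, and Usp18 gave 0.21. They were picked after their values were seen and do not stand for the list. The lowest value of the list was -0.28.

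Peptide supply to class I molecules rose in most of its members. These genes encode the interferon-inducible proteasome subunits, the activator that opens the proteasome, the transporter that carries peptides into the endoplasmic reticulum and the helpers that trim and load them. Of 11 measured members 8 rose and 0 fell, the median was 0.76, and in 10 every DMN animal was above every control. The share of all genes with such a separation was 13.4%. Psmb10 stood at 10.12, 10.34 and 10.71 in DMN animals and at 8.88, 8.40 and 8.60 in controls (1.77 ± 0.18 log2, adjusted p = 4.54e-10). Psmb9 stood at 10.60, 10.96 and 11.41 and 9.67, 9.0 and 9.03 (1.75 log2, adjusted p = 2.48e-05), and Psmb8 at 11.04, 11.37 and 11.79 and 10.29, 9.42 and 10.09 (1.47 log2, adjusted p = 0.000103). All 3 inducible subunits were raised by between 1.47 and 1.77 log2, and in each DMN animal 3 was the highest. The transporter genes Tap1 and Tap2 were 9.66, 9.80 and 10.22 against 8.65, 8.25 and 8.45 and 8.70, 8.85 and 8.93 against 8.05, 7.91 and 8.02, or 1.44 ± 0.14 and 0.83 ± 0.11 log2 higher (adjusted p = 3.31e-10 and 4.27e-07). A dimmer further probe set of Tap1 gave -0.10. The proteasome activator genes Psme2 and Psme1 rose by 0.76 and 0.47 log2 and the trimming peptidase gene Erap1 by 0.55. Tapbp, the loading factor tapasin, gave 0.28 (adjusted p = 0.053), and the general chaperone genes Pdia3 and Calr gave 0.19 and -0.08. By contrast, of 27 subunits of the constitutive proteasome 1 rose, Psma7 at 0.36 log2, and their median was 0.15. Psma7 or any other subunit did not pass without control 5, control 6, DMN animal 1 or DMN animal 3, and 3 subunits passed without control 4. Psma7 gave 0.11 against corn oil set 4 (adjusted p = 0.578).

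Promoters of 5 of these genes are printed because these genes rose and their promoters hold 1 of 2 motifs known from interferon responses. In Gbp2, Psmb10, Tap1 and Tap2 the capitals mark the core of an interferon-stimulated response element, GAAA and again GAAA with any 2 bases between them, on either strand. In Irf1 they mark the core of a gamma-activated site, TTC and GAA with any 3 bases between them. The positions are chr2:234005477-234005726 (plus strand) for Gbp2, chr19:50743293-50743542 (minus strand) for Psmb10, chr20:4668544-4668793 (minus strand) for Tap1, chr20:4652297-4652546 (minus strand) for Tap2 and chr10:38417685-38417934 (plus strand) for Irf1.
Gbp2: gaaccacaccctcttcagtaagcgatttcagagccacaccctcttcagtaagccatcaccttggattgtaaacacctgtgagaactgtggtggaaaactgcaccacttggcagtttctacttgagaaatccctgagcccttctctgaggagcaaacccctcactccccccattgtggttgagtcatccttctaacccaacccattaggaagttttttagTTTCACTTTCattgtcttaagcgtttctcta
Psmb10: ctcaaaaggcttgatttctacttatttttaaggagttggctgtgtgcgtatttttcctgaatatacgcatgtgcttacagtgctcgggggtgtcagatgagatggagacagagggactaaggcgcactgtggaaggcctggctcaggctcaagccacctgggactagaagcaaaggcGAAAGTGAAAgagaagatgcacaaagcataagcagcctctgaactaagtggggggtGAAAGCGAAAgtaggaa
Tap1: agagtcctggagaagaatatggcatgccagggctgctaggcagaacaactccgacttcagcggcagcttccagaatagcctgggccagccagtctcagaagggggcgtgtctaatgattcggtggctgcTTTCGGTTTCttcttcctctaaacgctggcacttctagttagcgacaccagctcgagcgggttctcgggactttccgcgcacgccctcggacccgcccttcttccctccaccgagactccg
Tap2: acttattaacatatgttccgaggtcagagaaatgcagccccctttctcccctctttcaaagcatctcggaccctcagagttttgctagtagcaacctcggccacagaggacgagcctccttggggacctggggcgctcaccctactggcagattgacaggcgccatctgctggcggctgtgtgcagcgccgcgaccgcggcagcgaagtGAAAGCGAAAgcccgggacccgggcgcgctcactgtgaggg
Irf1: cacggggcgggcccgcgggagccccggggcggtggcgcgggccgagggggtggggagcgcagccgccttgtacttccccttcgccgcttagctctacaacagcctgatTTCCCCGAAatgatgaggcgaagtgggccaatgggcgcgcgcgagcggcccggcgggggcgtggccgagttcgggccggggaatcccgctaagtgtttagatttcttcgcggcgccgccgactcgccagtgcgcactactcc
The first motif occurred in 3.41% and the second in 7.67% of the 33469 promoters. The first was found in 4 of the 7 peptide supply genes that rose and have a promoter in the table, among them Psme2, whose promoter is not printed. It was also found in 13 of the 17 antiviral type I genes with a promoter. Of that group 2 of 22 measured members rose. Tap1 and Psmb9 are neighbours that are read in opposite directions, and their promoter windows of 300 bases share 44.

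Most class II presentation genes rose against these controls. Of 10 measured members 8 rose and 0 fell, and the median was 0.87. Class II molecules are made by macrophages, dendritic cells and B cells and show peptides from engulfed proteins to helper T cells. RT1-Da, a class II alpha chain, was 10.34, 11.10 and 10.83 in DMN animals and 9.73, 9.07 and 8.90 in controls (1.53 ± 0.32 log2, adjusted p = 0.00202). Cd74, the invariant chain that guards the peptide groove, was 11.39, 11.86 and 11.51 against 10.75, 10.22 and 10.19 (1.20 log2, adjusted p = 0.00411). The peptide exchange factors RT1-DMa and RT1-DMb were 0.86 and 0.88 log2 higher, with no overlap between groups in either. RT1-Db1 rose by 0.99, Ctss, the protease that removes the invariant chain, by 0.74, and the thiol reductase gene Ifi30 by 0.53 log2. A dimmer further probe set of RT1-Db1 gave 0.15 (adjusted p = 0.345). RT1-Db1 and Ctss did not pass in 4 and 9 of 14 alternative settings. Ciita, the master activator of class II genes, gave 0.12 (adjusted p = 0.48), and RT1-Ba gave 0.23 with overlapping groups.

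RT1-Bb, a class II beta chain, had the largest difference of all genes called up, and its probe sets disagreed. Its brighter probe set was 9.62, 10.38 and 9.98 in DMN animals and 6.50, 6.71 and 7.62 in controls (3.05 ± 0.57 log2, adjusted p = 0.000464). Its other probe set went the other way, at -0.98 log2 (adjusted p = 0.167), and the median of both gave 1.04. Class I and class II genes are polymorphic and near-identical between copies, so a probe set may read a neighbouring gene or miss an allele. The 11 class I chain probe sets spread widely, from -3.43 for RT1-T24-4 to 2.76 for RT1-CE10. RT1-T24-4 was 6.56, 6.73 and 6.13 in DMN animals and 10.62, 9.73 and 9.36 in controls, without overlap, yet it did not pass (adjusted p = 0.0833) with a standard error of 1.13. In the 15 vehicle arrays of the other 5 control sets it ran from 5.77 to 10.03. RT1-CE5 was the 1 member of the class I chain list that passed (1.21 log2), and 3 of its other probe sets also passed, at 1.34, 2.60 and 3.55 log2, while the dimmest did not (adjusted p = 0.986). RT1-A, a class I chain gene outside that list, fell by 1.23 log2, from 10.47, 10.09 and 9.98 to 8.96, 8.70 and 9.21. B2m, the light chain shared by all class I molecules, gave 0.12 on a probe set near the top of the scale and 0.55 on a dimmer one that passed (adjusted p = 0.000632).

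The class II result depended on which corn oil rats served as controls. In corn oil set 4 RT1-Da stood at 10.61, 10.02 and 9.94, Cd74 at 11.27, 10.89 and 10.89 and RT1-Bb at 9.20, 8.19 and 8.28. These values lie above those of the matched controls. Against set 4, 3 of the 10 class II members rose in place of 8, namely RT1-DMa, RT1-DMb and Ifi30, and RT1-Da gave 0.57 (adjusted p = 0.315). RT1-Bb, Cd74, RT1-Db1 and Ctss gave 1.44, 0.57, 0.29 and 0.14 (adjusted p = 0.127, 0.211, 0.497 and 0.768). The peptide supply genes did not share this: against set 4, Psmb10 was 1.56, Psmb9 1.62 and Tap1 1.58 log2 higher, and Gbp2 and Cxcl9 were 2.44 and 1.98 higher.

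**Figure D2:**
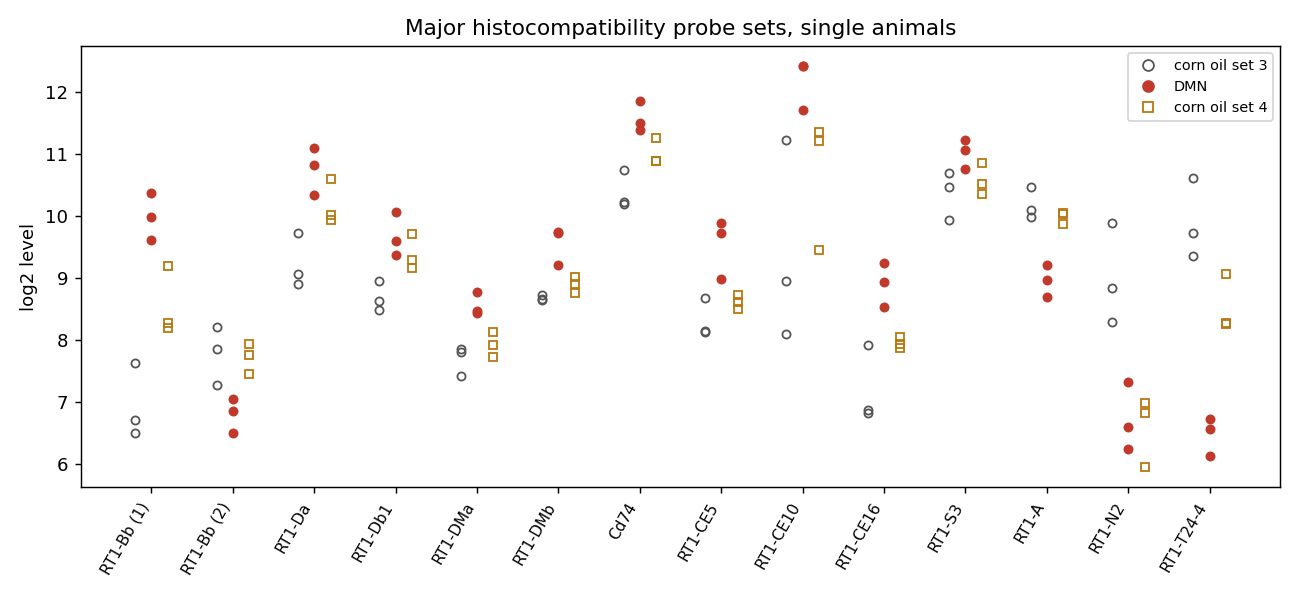
Log2 level (y axis) of class II and class I probe sets (x axis) in single animals, with DMN as filled red circles, corn oil set 3 as open circles and corn oil set 4 as open squares. RT1-Bb (1) and RT1-Bb (2) are the brighter and the other probe set of that gene, and they differ from the set 3 controls in opposite directions. For Cd74 the set 4 animals lie between the other groups, and for RT1-Da the highest of them overlaps the DMN animals.

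Several macrophage markers also rose against these controls. Of 18 measured markers 9 rose and 1 fell, the median was 0.61, and the summed log2 level of the list was 163 to 166 in DMN animals and 151 to 158 in controls. Gpnmb and Lgals3, both high in macrophages that clear debris, were 9.63, 9.52 and 9.81 against 8.29, 7.49 and 7.83 and 9.95, 10.17 and 10.36 against 8.64, 8.41 and 8.48, or 1.78 and 1.65 log2 higher (adjusted p = 0.000242 and 1.2e-06). Lyz2 (lysozyme), Cd68 and the Fc receptor genes Fcer1g and Fcgr3a rose by 1.37, 0.97, 0.94 and 0.90 log2. The Kupffer cell lectin Clec4f gave 0.22 (adjusted p = 0.745), and Cd14, the co-receptor for bacterial lipopolysaccharide, fell from 10.91, 10.85 and 10.66 to 10.21, 10.10 and 9.98 (-0.71 log2). Without control 6 or DMN animal 2, 5 markers rose in place of 9, and the fall of Cd14 passed in 0 of the 6 fits that left out 1 animal. Against corn oil set 4, 2 macrophage markers rose and 1 fell, and Lyz2, Cd68, Fcer1g and Fcgr3a gave 0.84, 0.30, 0.46 and 0.54 log2 (adjusted p = 0.0771, 0.491, 0.194 and 0.0537). The part of these cells in the class II and interferon results was not tested.

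Lymphocyte markers gave few calls. Of 21 measured T and NK cell markers 1 rose, the cytokine receptor chain Il2rg, at 7.18, 7.32 and 7.003 against 6.39, 6.44 and 6.66 (0.67 log2, adjusted p = 8.66e-05). The list median was -0.03, and its summed log2 level was 133 to 136 in DMN animals and 132 to 136 in controls. The defining T cell genes Cd3e and Cd3d gave -0.06 and 0.02 log2, at levels near the bottom of the scale. Of 3 B and plasma cell markers 0 passed by limma, with 0 at an unadjusted p under 0.05, while 2 of 6 neutrophil markers rose, S100a8 by 0.35 and the shared receptor gene Fcgr3a.

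Several genes typical of the hepatocytes around the central vein fell. Of 23 measured pericentral genes 8 fell and 0 rose, the median was -0.53, and in 13 every DMN animal was below every control. The share of all genes with such a separation was 9.05%. Oat, ornithine aminotransferase, had the largest difference of all genes called down. It stood at 8.48, 8.95 and 8.91 in DMN animals and at 11.95, 12.26 and 11.60 in controls, a difference of -3.16 ± 0.37 log2 (adjusted p = 2.78e-08). Cyp3a9 was 7.91, 8.28 and 9.13 against 10.18, 11.08 and 10.64 (-2.19 ± 0.38 log2, adjusted p = 0.000186), and Cyp1a2, which oxidises aromatic amines and caffeine, was 11.97, 11.46 and 11.84 against 13.49, 13.09 and 12.60 (-1.30 ± 0.29 log2, adjusted p = 0.0039). The groups were apart in each of these genes, and the DMN animals spread over about 1 log2 unit for Cyp3a9. Glul, glutamine synthetase, is confined to the innermost hepatocytes around the vein. It was 10.22, 11.003 and 10.47 against 11.39, 11.36 and 11.57 (-0.87 ± 0.19 log2, adjusted p = 0.00252). Cyp2e1, the enzyme that activates DMN, was 13.01, 13.27 and 12.75 against 13.58, 13.94 and 13.65 (-0.71 ± 0.13 log2, adjusted p = 0.000324), or 1.64-fold lower. Gulo, of vitamin C synthesis, Slc13a3, a dicarboxylate carrier, and Rgn, regucalcin, fell by 0.78, 0.76 and 0.62 log2. Slc13a3 gave -0.28 and Rgn -0.42 against corn oil set 4 (adjusted p = 0.27 and 0.0707), and 6 pericentral genes fell in place of 8. Members that did not pass included Axin2 (-0.39, adjusted p = 0.0609), a Wnt target, Slc1a2 (-0.73) and Cyp7a1, the first enzyme of bile acid synthesis (-0.85, adjusted p = 0.574). The bright pericentral genes Car3 and Rnase4 gave -0.12 and -0.08 log2.

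Genes of the opposite, periportal zone gave no call against these controls. Of 22 measured 0 rose and 0 fell at an adjusted p under 0.05 (limma), 1 was higher and 1 lower at an unadjusted p under 0.05, and the median was 0.01. The urea cycle gene Ass1 gave -0.20, the immunoglobulin carrier Pigr 0.03 and Igf1 -0.05 log2. Against corn oil set 4, 1 of the 22 fell, and Ass1 gave -0.40 (adjusted p = 0.0374). The difference between the zones was not itself tested.

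**Figure D3:**
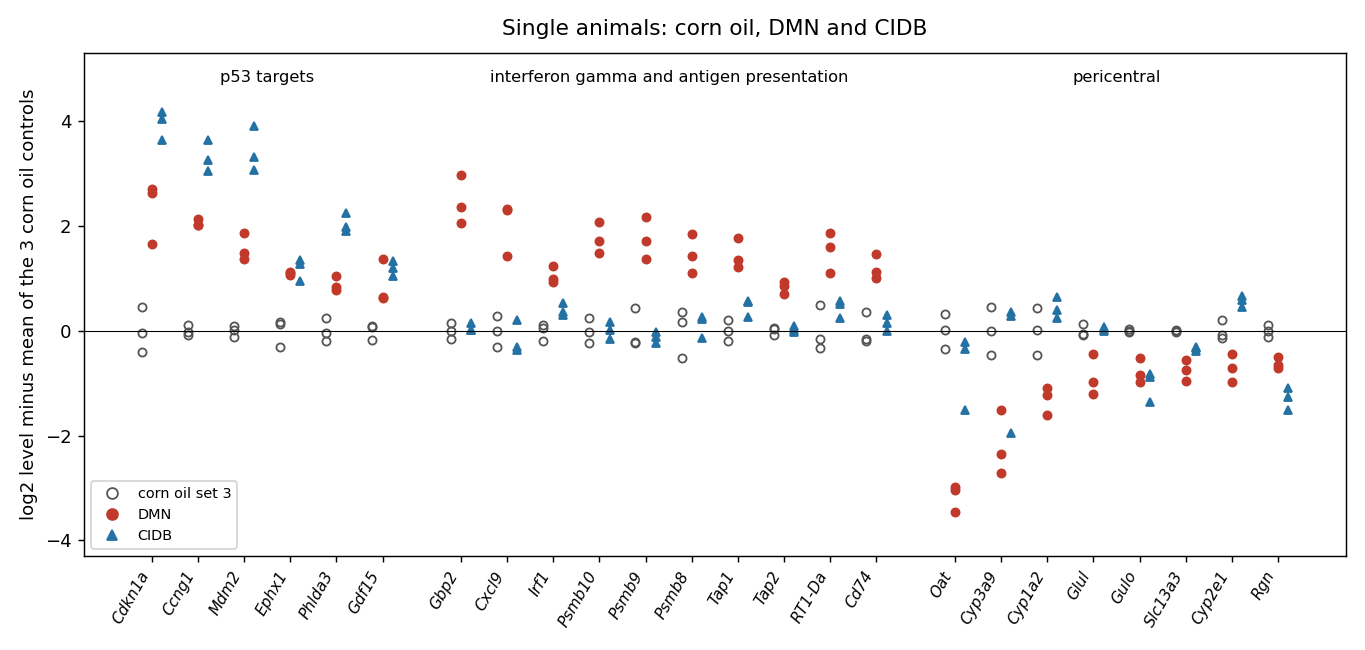
Log2 level of single animals minus the mean of the 3 corn oil controls (y axis) for members of 3 gene groups (x axis), with controls as open circles, DMN as red circles and CIDB, which shares these controls, as blue triangles. DMN animals average 2.47 log2 for Gbp2 and -3.16 for Oat. CIDB lies above DMN for Cdkn1a, Ccng1 and Mdm2 and near the controls for Gbp2, Psmb10 and Glul.

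Other enzyme groups split between rises and falls. Of 37 measured NRF2 and glutathione genes, which detoxify electrophiles, 10 rose and 0 fell. Akr7a3, an aldehyde reductase, was 12.63, 12.17 and 12.01 against 10.97, 10.44 and 10.63 (1.59 log2, adjusted p = 7.2e-05). Gsta3, a glutathione transferase, was 8.62, 7.54 and 7.11 against 6.22, 6.40 and 5.90 (1.58 log2, adjusted p = 0.0414) and the highest value in DMN animal 1. Without control 5 or DMN animal 1, 5 genes of this list passed, and without control 6, 6. Gstt1, Gss and Gsr, of glutathione transfer, synthesis and recycling, rose by 0.62, 0.51 and 0.51 log2. Aldh1a1, which makes retinoic acid from retinal, was 12.49, 12.13 and 12.05 against 9.24, 9.80 and 10.16, 2.49 log2 or 5.63-fold higher (adjusted p = 0.000426), and it was the 1 of 27 retinoid and aldehyde enzymes to pass. Ces2c, a carboxylesterase, rose by 1.73 log2. Among 39 cytochrome P450 genes 5 fell and 1 rose. Besides those of the pericentral list, Cyp4a1, a fatty acid hydroxylase, fell by 0.87 and Cyp4f4 by 0.55 log2. Cyp4a1 gave -0.54 against corn oil set 4 (adjusted p = 0.0786).

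Of 30 measured sex-dependent liver genes 6 fell and 1 rose, and 4 fell without control 5, control 6, DMN animal 1 or DMN animal 3. Male rat liver expresses the male-predominant ones under pulsed growth hormone. Of 15 male-predominant genes 5 fell and 0 rose, and of 15 female-predominant genes 1 rose and 1 fell. Counted without a threshold, 14 male-predominant and 13 female-predominant genes were lower, with medians of -0.21 and -0.08 log2. The male-predominant gene Cyp2c11 gave -0.21 (adjusted p = 0.481). Inmt, a methyltransferase of indole amines, was 7.50, 8.02 and 7.35 against 10.04, 10.23 and 10.76 (-2.72 ± 0.54 log2, adjusted p = 0.000908). Obp3, of the urinary lipocalin family, was 10.11, 11.66 and 10.18 against 12.27, 12.50 and 12.56 (-1.80 log2, adjusted p = 0.021), with DMN animal 2 nearer to the controls than the others. Akr1c1 was 7.29, 7.17 and 8.24 against 9.88, 9.78 and 9.51 (-2.16 log2, adjusted p = 0.000137). Sult1e1, which sulfates estrogens, and Fmo1 fell by 0.70 and 1.02 log2. Fmo1 and Obp3 did not pass in 7 and 4 of 14 alternative settings, and against corn oil set 4 Fmo1 gave -0.83 (adjusted p = 0.0792). Igfbp3, the main carrier of Igf1 in blood, was 8.33, 8.29 and 8.51 against 9.98, 9.99 and 9.80 (-1.55 ± 0.21 log2, adjusted p = 1.28e-06). Cyp2c12, the steroid hydroxylase typical of female rats, was 10.90, 11.26 and 11.01 against 9.82, 8.41 and 8.70 (2.08 ± 0.42 log2, adjusted p = 0.00152), and control 4 was the closest to the DMN animals.

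Cell cycle and matrix genes gave few calls against these controls. Of 43 cell cycle genes 1 rose, Ccnd2 (cyclin D2) by 0.42 log2, and 0 passed without control 4, control 6 or DMN animal 2. Ccnd2 gave 0.27 against corn oil set 4 (adjusted p = 0.122). The list count went the other way, with 7 members up against set 4, 5 with both corn oil sets and 9 on the 6 arrays alone. Of the 43 genes 37 were higher in DMN livers, and 17 had every DMN animal above every control. Over all genes 13.4% did. Of the 23 members of the G2 and M group 0 passed by limma, 4 were higher at an unadjusted p under 0.05, 13 had every DMN animal above every control, and the median was 0.30. Ccnb1 (cyclin B1) was 8.17, 8.18 and 8.07 against 7.28, 7.34 and 7.72 (adjusted p = 0.236). Of 46 matrix and fibrosis genes 3 rose and 2 fell, with 2 and 1 without control 5 and 2 and 4 without control 6. Timp1, an inhibitor of matrix proteases, was 7.55, 8.16 and 7.85 against 7.09, 6.94 and 6.48 (1.02 log2, adjusted p = 0.000286). Dcn, the proteoglycan decorin, was 8.32, 7.96 and 8.58 against 7.12, 6.88 and 6.72 (1.38 log2, adjusted p = 1.79e-06). Collagen III (Col3a1) fell by 0.60 and elastin (Eln) by 0.41 log2, but against corn oil set 4 these gave -0.41 and -0.01 (adjusted p = 0.0844 and 0.952). Acta2 and Col1a1, marks of activated stellate cells, gave 0.04 and -0.25. Vim, the filament protein of mesenchymal cells, rose by 1.04 log2, and Kdr, the receptor for VEGF on endothelium, fell by 0.77. Of 17 stellate cell markers 2 rose and 2 fell, with a summed log2 level of 129 to 131 in DMN animals and 128 to 131 in controls, and 1 fell without control 4, control 5 or DMN animal 3. Of 14 endothelial markers Kdr was the 1 to pass, and the summed level was 109 to 110 against 110 to 113.

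Among the remaining lists, 3 of 27 apoptosis genes rose: Bcl2a1, a survival factor, by 0.63, Ripk3, a kinase of necroptosis, by 0.45 and Bak1, which perforates mitochondria, by 0.30 log2. Of 30 immediate early genes 2 rose, the transcription factors Klf4 and Klf6, by 0.62 and 0.61 log2, and 1 of these passed without control 5, DMN animal 1 or DMN animal 3. Of 48 amino acid and urea genes 4 fell, Oat, Glul, Hpd (-0.26) and Cdo1 (-0.39), with 1 without DMN animal 1 and 2 without control 5 or DMN animal 2. Of 26 methyl transfer and methionine genes Inmt and Cbs, which commits homocysteine to cysteine, fell, the latter from 11.93, 12.02 and 11.87 to 11.31, 10.99 and 11.16 (-0.78 log2, adjusted p = 6.9e-05). Of 40 acute phase and complement genes 1 rose, Stat3 (0.41 log2), and 0 without control 5, control 6, DMN animal 2 or DMN animal 3. Of 22 fatty acid synthesis genes and of 41 heat shock and ER stress genes 0 passed by limma, with 2 and 1 at an unadjusted p under 0.05. Of 15 biliary and oval cell markers 2 rose, Anxa2 and Krt18 (0.72 and 0.52 log2), with 1 without control 5, control 6, DMN animal 1 or DMN animal 2. Against corn oil set 4 Klf6, Cdo1, Stat3 and Krt18 gave 0.33, -0.33, 0.19 and 0.20 log2 (adjusted p = 0.286, 0.074, 0.325 and 0.452). The summed log2 level of the biliary and oval cell markers was 116 to 117 in DMN animals and 113 to 115 in controls. Of 6 erythroid markers 0 passed by limma, 4 were lower at an unadjusted p under 0.05, and their summed level was 53 to 54 in DMN animals against 54 to 56 in controls. Of 10 mast cell and 10 pancreatic acinar markers 0 passed by limma, with 0 and 2 at an unadjusted p under 0.05.

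CIDB (C.I. Direct Black) is an azo dye. Its 3 rats received 146 mg/kg/day by gavage for 7 days and share the 3 corn oil controls. Doses differ, so compound and dose cannot be told apart. Directly compared, 849 genes were higher in DMN livers and 623 lower, or 8.15% and 5.98% of those tested. In CIDB livers Cdkn1a stood at 12.94, 12.53 and 13.07, Ccng1 at 11.34, 11.11 and 11.70 and Mdm2 at 10.52, 10.28 and 11.12. DMN livers were lower for each, with differences of -1.62 ± 0.26, -1.25 ± 0.15 and -1.87 ± 0.17 log2 (adjusted p = 1.12e-05, 2.01e-08 and 1.08e-11). Of the 23 p53 targets 10 were lower and 2 higher in DMN livers. Mgmt was 11.52, 10.28 and 9.69 in CIDB livers, where the animals spread widely, and the difference of -0.59 ± 0.30 log2 did not pass (adjusted p = 0.221). Of the peptide supply genes 10 of 11 were higher in DMN livers and the median difference was 0.83. Gbp2 was 5.87, 5.88 and 6.02 in CIDB livers and 2.41 ± 0.17 log2 higher in DMN livers (adjusted p = 2.02e-15). Cxcl9 was 7.65, 7.71 and 8.24 in CIDB livers (2.18 log2, adjusted p = 7.43e-09). Of the macrophage markers 3 of 18 were higher in DMN livers, and Cd68 differed by 0.04 (adjusted p = 0.946).

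The pericentral genes also separated both treatments, with 10 of 23 lower and 1 higher in DMN livers. Oat was 10.43, 11.60 and 11.72 in CIDB livers, where the spread was wide, and the difference of DMN from CIDB was -2.47 log2 (adjusted p = 2.08e-06). Cyp2e1 was 14.18, 14.31 and 14.39 in CIDB livers, 0.58 log2 above the controls, and the direct difference was -1.29 ± 0.13 (adjusted p = 2.12e-10). Nr1i3, the nuclear receptor CAR, was lower in DMN livers, with a difference of -1.81 log2. The largest difference upward was Scd, the desaturase that makes monounsaturated fatty acids, at 13.19, 12.49 and 13.18 in DMN livers and 9.01, 7.73 and 8.05 in CIDB livers with 12.80, 9.84 and 12.54 in the controls. Control 5 lay between the other controls and the CIDB animals, and DMN minus control was 1.22 log2 (adjusted p = 0.377). Of 22 fatty acid synthesis genes 11 were higher in DMN livers, and of 43 cell cycle genes 20. Against the shared controls, the fatty acid synthesis medians were 0.10 log2 in DMN and -0.47 in CIDB livers. The cell cycle medians were 0.22 and -0.31. The haemoglobin gene Hbb was 13.16, 13.25 and 13.20 in DMN, 8.46, 8.79 and 8.90 in CIDB and 13.82, 13.23 and 13.81 in control livers, and 3 of 6 erythroid markers were higher in DMN than in CIDB livers.

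DMN's effect was also tested against the mean effect of the 13 compounds that have other control sets. CIDB was left out because it shares the controls, and a difference from this mean need not be particular to DMN. By this test 249 genes were higher and 84 lower for DMN, or 2.39% and 0.807%. Except for CPA (cyproterone acetate), the 13 compounds were given in methylcellulose, and doses and most dosing times differed from those of DMN. Some were set against controls dosed for another number of days. Compound, vehicle, dosing time and dose cannot be told apart in this contrast. Of the 300 genes that rose 154 were also higher here, and of the 89 that fell 39 were also lower. Gbp2 exceeded the mean effect of the others (-0.04) by 2.51 ± 0.18 log2 (adjusted p = 9.6e-14), Psmb10 by 1.82 (adjusted p = 3.2e-09) and Ccng1 by 1.77 (adjusted p = 1.26e-10). Of the 11 peptide supply genes 9 were higher, of the 10 class II genes 7, of the 18 macrophage markers 9 and of the 23 p53 targets 6. This contrast carries the level of the 3 corn oil controls: for the macrophage markers, the median difference from these controls was 0.61 in DMN livers, 0.49 in CIDB livers and 0.70, 0.44 and 0.29 in the single animals of corn oil set 4. Plac8, a small cysteine-rich protein of immune cells, was 9.32, 10.01 and 9.94 in DMN animals against 8.35, 7.71 and 7.80 in controls, and its effect was 1.94 log2 above the others (adjusted p = 4.11e-06). Oat and Cyp2e1 were lower than that mean, with differences of -2.30 and -0.88 log2 (adjusted p = 0.000196 and 5.95e-05), and 5 of 23 pericentral genes were lower. Several large changes did not pass this test: Aldh1a1 differed by -0.26 from a mean effect of 2.75 (adjusted p = 0.855), Cyp2c12 by 0.68 (adjusted p = 0.519), Akr7a3 by 0.57 and Obp3 by -0.85. In the PPARalpha list 11 of 36 genes were lower relative to the others, among them Cyp4a1 at -1.41 log2, where the mean effect of the others was 0.53. These others include Wy-14643, which the paper places among the peroxisome proliferators. Against DMN's own controls 1 of the 36 fell, Cyp4a1, 0 rose, and the list median was -0.11. For 13 of the 300 genes that rose, every DMN animal was above all 60 other arrays, and for 0 of the 89 that fell was every one below.

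**Figure D4:**
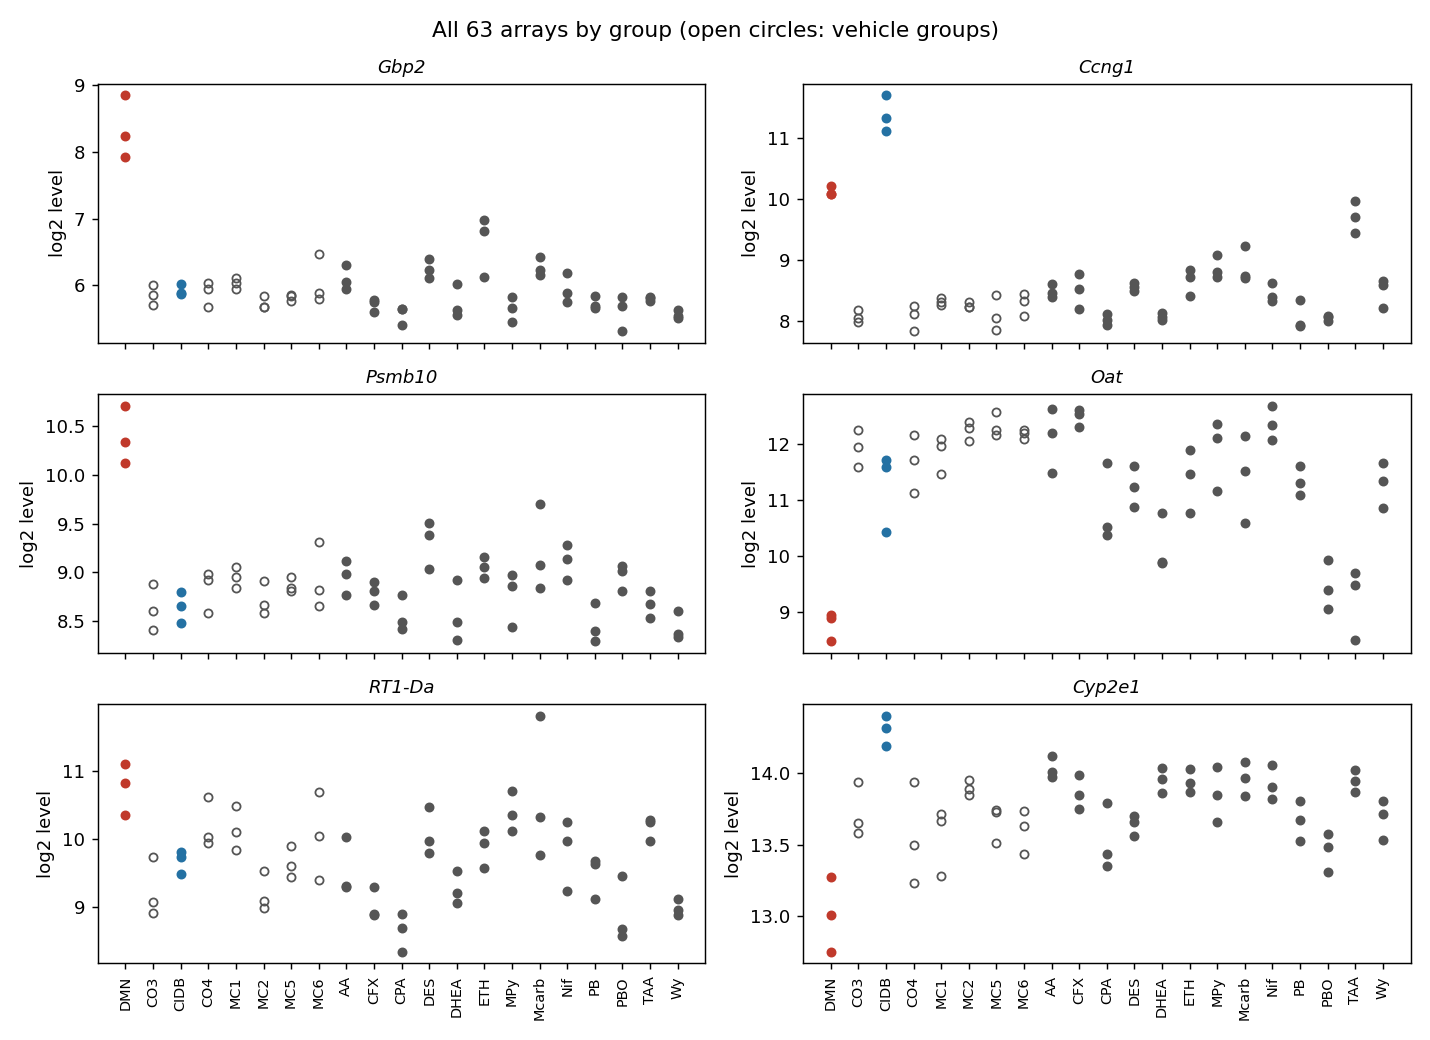
Log2 level (y axis) of 6 genes in all 63 arrays by group (x axis, short names as in the labels; CO3 and CO4 are corn oil and MC1, MC2, MC5 and MC6 methylcellulose vehicle groups, drawn as open circles). Red points are DMN and blue points CIDB. For Gbp2 and Psmb10 the DMN animals lie above every other array, the highest of which reached 6.98 and 9.71. For Ccng1 they lie between CIDB and the rest, for Oat they overlap the TAA (thioacetamide) animals, and for RT1-Da they overlap Mcarb (methylcarbamate), MPy (methapyrilene) and the vehicle groups MC6 and CO4, among others.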

How the data were processed

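Livers of 3 DMN rats and 3 corn oil rats (control group 3), within 63 rat liver arrays (Affymetrix RAE230A) in 21 groups of 3, were analysed. The authors read scans into CEL files through MAS 5.0. RMA (affy package, version not given in the sources used here) then subtracted background, equalised the arrays and summarised probes into the deposited log2 values, a method that compresses differences of dim probes. Array medians ran from 7.42 to 7.51, so nothing was normalized further. A single symbol was held by 12783 of 15866 probe sets (several by 312, none by 2771), giving 10411 genes, and the brightest probe set on average stood for its gene.

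With limma 3.58.1, a mean per group was fitted over the whole series (R 4.3.3, 42 residual degrees of freedom, prior 4.81), checked on simulated data. Contrasts were DMN minus its controls, DMN minus CIDB, and DMN's effect minus the mean effect of 13 compounds with other controls. The Benjamini-Hochberg adjustment ran across the whole set of 15866 tests, and called means under 0.05. An exact test of 3 against 3 animals was not used, since it cannot reach 0.05. Named genes were the 15 highest and 15 lowest called genes with groups apart, up to 6 called and 3 bright uncalled members per list (all members of the p53, class II and pericentral lists), and 10 each way for the other contrasts; further members named for their role (Cd3e, Cd3d, Cd14, Ccnb1, Acta2, Sult1e1, Pdia3, Tapbp, RT1-T24-4, RT1-CE10, Ifng, Nos2, Ifngr1 and the uncalled type I interferon genes) were chosen after their values were seen. The members and lists were chosen with earlier results of these data known. Many listed genes have no probe set with that symbol alone and were not analysed here. The number of arrays limits the precision, and probe sets of 1 gene can disagree. Alternatives were other scalings, filters, weights, control sets and omitted animals. Promoters came from RefSeq (GRCr8).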

Additional observations from a re-analysis of the deposited data

Results flagged for a closer look

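DMN and CIDB were measured against the same controls, and in 3 of the named genes both compounds passed the test in opposite directions and also differed from each other. Cyp4a1 was -0.87 log2 from the controls under DMN and 0.70 under CIDB (adjusted p = 0.00775), and the direct difference was -1.57 (adjusted p = 2.59e-08). Cyp2e1 was -0.71 under DMN and 0.58 under CIDB (adjusted p = 0.00122), with a direct difference of -1.29 (adjusted p = 2.12e-10). Rpa1 was 0.43 under DMN and -0.36 under CIDB (adjusted p = 0.00657), with a direct difference of 0.78 (adjusted p = 2.59e-08). Against corn oil set 4, DMN minus control was -0.54 for Cyp4a1 (adjusted p = 0.0786). The shared controls enter both single effects but not the direct difference. Groups of 3 animals were too small for a test of outlying animals.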

How the results depend on the processing

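DMN minus corn oil gave 513 called probe sets, and leaving out 1 animal at a time gave 273 to 780: 273 without control 5, 292 without control 6, 295, 338 and 338 without DMN animals 1, 2 and 3, and 780 without control 4. Array weights, which put 4.85 on control 5 and 0.474 on control 4, gave 3510. Using both corn oil sets gave 838 and set 4 alone 1024, of which 420 and 285 were shared with the 513 in direction. Against the mean effect of the other compounds, 431 became 2470 with array weights and 203 to 530 with 1 animal left out (203, 222, 231, 260 and 223 without control 5, control 6 and DMN animals 1, 2 and 3). The count beyond 2.5-fold was 50, with 83 at 2-fold and 47 to 59 with 1 animal left out; DMN against CIDB gave 1454 to 1708 with 1 animal left out, beside 2040. Median centring, the brighter probe sets, a trended robust prior and the 6 arrays alone stayed within 1.5 times these counts. Of 97 named genes called, 1 reversed: Polb, at -0.0054 as the median of its probe sets. Leaving out 1 animal cost 10 to 26 of the 97 calls, and set 4 cost 32. The peptide supply and class I list had at least 9 calls upward and the pericentral list 6 to 12 downward under all 14 alternatives; the cause of the losses in class II and macrophage calls was not tested. No paired analysis was possible for DMN against corn oil because the groups share no replicate numbers. DMN and CIDB share numbers 1 to 3; with a replicate block on those 6 arrays 1747 probe sets were called against 1886 without it. Same-numbered animals deviated together at r = 0.0262, 0.166 and 0.0832 across probe sets, so the numbers were not taken to pair the animals, although each DMN animal correlated best with its own number.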

Other observations

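The genes below lie outside the lists and were picked after their values were seen, so they stand as single values and show nothing about a group. Coro1a (coronin, which binds actin in leukocytes) was 7.19, 7.51 and 7.10 in DMN animals and 6.05, 6.31 and 6.23 in controls (1.07 log2, adjusted p = 4.27e-07). Cotl1 was 8.004, 8.53 and 8.71 against 7.45, 7.14 and 7.20 (1.15 log2, adjusted p = 7.27e-06), and Lcp1 (plastin of blood cells), Msn (moesin) and Arpc1b (of the Arp2/3 complex) rose by 0.82, 0.88 and 0.79 log2. The subunits of the phagocyte oxidase Cyba and Cybb rose by 0.87 and 0.56 log2. In CIDB livers Coro1a, Cotl1 and Msn were 0.02, -0.04 and -0.03 log2 from the same controls, and DMN livers were higher by 1.05, 1.19 and 0.91 (adjusted p = 1.72e-07, 9.29e-07 and 5.01e-05).

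Of the genes that fell, picked in the same way, Ptprb, a phosphatase of endothelium, was 7.39, 7.56 and 7.84 against 8.45, 8.502 and 8.26 (-0.81 log2, adjusted p = 6.67e-05), and CIDB livers were 0.33 log2 from the controls. Sparcl1, Abi3bp and Ogn, proteins of the matrix, fell by 0.75, 0.55 and 0.45 log2. Il33, an alarmin kept in the nuclei of stromal and endothelial cells, was 8.96, 8.63 and 8.67 against 10.35, 10.54 and 9.77 (-1.46 log2, adjusted p = 0.00016).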
